A study of Mus musculus with 10 samples.

Results

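Bone-marrow-derived macrophages were compared 1 h after AmTARS and without treatment, over the 11407 genes (of 11617 listed) that had a mean of at least 1 CPM across all 10 mRNA libraries of the study. CPM is a gene's read count scaled to the size of its library, with a further scaling that the sources used here do not give. The comparison rests on 4 of the 10 libraries: replicates 2 and 3 of the untreated cells and replicates 2 and 3 of the AmTARS cells. All cells came from the marrow of C57BL/6 mice, whose age is 6 weeks in the origin label and 7 weeks in the growth protocol. Red blood cells were lysed, and the marrow was cultured in DMEM with 10% fetal bovine serum and 50 ng/ml of the myeloid growth factor GM-CSF. The untreated group carries no time label. The AmTARS dose is written as 0.5 with the unit mm, so the amount is not certain. Side comparisons used cells given 10 ng/ml Pam3CSK4 for 1 h (replicates 1 and 3) and cells given AmTARS for 3 h (replicates 1 and 3). Each group thus had n = 2. Whether the replicates were separate mice or dishes is not labelled, so p-values may measure technical spread only.

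AmTARS comes from Akkermansia muciniphila, a gut bacterium, and is its threonyl-tRNA synthetase, which joins threonine to its transfer RNA. Pam3CSK4 is a synthetic lipopeptide that activates the receptor pair TLR2 and TLR1. TLR2 signals through the adaptor MyD88, IRAK kinases and the ubiquitin ligase TRAF6, which leads to release of the transcription factor NF-kB from its IkB inhibitors and to activation of MAP kinases. In macrophages the first genes to respond do so without new protein synthesis: cytokines such as Tnf, neutrophil-attracting chemokines, transcription factors of the AP-1 and EGR families, and the feedback inhibitors that end the response.

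Promoters are shown for genes on which the comparison turns, as the 250 bases before the annotated start, read 5′ to 3′ along the gene from RefSeq (GRCm38.p6). Capitals in the first 4 mark matches to the kB consensus, the DNA element that NF-kB binds, searched on both strands. Overlapping matches on opposite strands merge into 1 run. Of the 15 largest rises 12 had a promoter entry, and 3 of these held such a match (25%). All 3 were among the 6 largest with an entry; of these 6, Tnf, Il1b and Junb held none, and Tnf is shown as the largest rise.
Tnf: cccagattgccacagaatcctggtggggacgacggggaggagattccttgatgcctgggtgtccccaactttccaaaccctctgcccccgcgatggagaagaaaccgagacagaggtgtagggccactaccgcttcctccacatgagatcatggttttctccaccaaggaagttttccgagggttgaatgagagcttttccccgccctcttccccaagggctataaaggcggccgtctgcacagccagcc
Cxcl2: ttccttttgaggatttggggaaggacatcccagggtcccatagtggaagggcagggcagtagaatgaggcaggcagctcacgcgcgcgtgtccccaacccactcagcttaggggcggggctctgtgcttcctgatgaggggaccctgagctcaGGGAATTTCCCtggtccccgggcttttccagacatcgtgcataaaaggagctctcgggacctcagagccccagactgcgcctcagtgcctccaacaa
Nfkbia: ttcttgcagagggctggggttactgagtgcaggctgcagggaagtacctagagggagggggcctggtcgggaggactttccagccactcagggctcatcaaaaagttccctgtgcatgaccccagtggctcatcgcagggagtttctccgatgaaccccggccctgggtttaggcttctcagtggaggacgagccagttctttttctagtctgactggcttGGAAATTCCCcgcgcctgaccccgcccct
Cxcl1: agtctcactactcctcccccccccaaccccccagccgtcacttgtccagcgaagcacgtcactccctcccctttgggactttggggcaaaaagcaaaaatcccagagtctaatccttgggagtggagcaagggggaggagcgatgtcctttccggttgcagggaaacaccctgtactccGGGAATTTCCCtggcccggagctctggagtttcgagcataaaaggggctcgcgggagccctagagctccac
Txnip: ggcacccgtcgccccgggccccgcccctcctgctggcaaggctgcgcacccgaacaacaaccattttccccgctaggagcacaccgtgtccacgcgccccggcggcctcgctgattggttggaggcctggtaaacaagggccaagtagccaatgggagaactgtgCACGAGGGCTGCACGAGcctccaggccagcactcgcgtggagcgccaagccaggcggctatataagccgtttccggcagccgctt
Arrdc4: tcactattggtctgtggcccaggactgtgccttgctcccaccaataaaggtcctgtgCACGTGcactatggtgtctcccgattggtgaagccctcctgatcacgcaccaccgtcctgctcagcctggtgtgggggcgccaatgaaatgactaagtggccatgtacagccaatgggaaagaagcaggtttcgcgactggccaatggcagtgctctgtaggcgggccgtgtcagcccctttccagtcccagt
The windows are chr17:35202008-35202257 (minus strand), chr5:90903649-90903898 (plus), chr12:55492648-55492897 (minus), chr5:90890995-90891244 (plus), chr3:96557707-96557956 (plus) and chr7:68749239-68749488 (minus). The kB match spans bases -97 to -87 before the start of Cxcl2, -29 to -20 for Nfkbia and -71 to -61 for Cxcl1. Txnip and Arrdc4 were added after their values were seen. Their capitals mark an E-box (CACGTG), or a pair of E-box-like elements (CACGNG, 5 bases apart, CACGNG), the latter a pattern that was set after the Txnip sequence was read. The pair spans -85 to -69 in Txnip, and the Arrdc4 E-box spans -193 to -188.

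The kB consensus was present in 3.75% of 27025 promoters of this length and in 4.47% of the 8808 that belong to genes tested. Among promoters of genes that were higher with AmTARS with and without the length correction described below, 6.32% held it (28 of 443), against 4.28% of those lower (18 of 421). The E-box was in 6.05% of all promoters and 8.69% of those of genes tested, and the pair of E-box-like elements in 14 of all 27025. A match is a string of letters and says nothing of binding.

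The 4 libraries carried 32446075 to 37226465 reads in listed genes, and Pearson's r across genes between replicates was 0.998 in both groups. Their differences exceeded counting noise (chi-square per degree of freedom 3.58 in the untreated and 4.22 in the AmTARS pair), so each was counted as 2 samples. No listed gene had 0 reads in any library, so genes without reads in some library cannot be seen here. All listed genes together summed to 959639 and 960837 CPM untreated and to 1009840 and 1003600 CPM with AmTARS. Sums over markers share this difference in totals. Among defining markers, 12 of 13 macrophage genes were listed and summed to 82802 and 83998 CPM untreated and 91574 and 89221 with AmTARS. Of 13 neutrophil markers 12 were listed, of 13 dendritic cell markers 6 (without Flt3, Zbtb46, Clec9a and Xcr1) and of 13 T and NK cell markers 3 (without Cd3e).

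A relation with transcript length ran through the whole comparison. AmTARS libraries had higher values than untreated ones for genes with short transcripts and lower values for genes with long ones. Spearman's rho between length and log2 fold change was -0.742 over 11366 genes, which are not independent replicates. In the shortest of 5 equal length classes (up to 1784 nt) the median log2 fold change was 0.22, and 56.3% of genes were called higher. In the longest class (5098 nt and over) it was -0.24, and 60.8% were called lower. Each of the 4 pairs of an AmTARS and an untreated library showed it (rho -0.637 to -0.729), while rho was -0.227 between the 2 untreated libraries and 0.143 between the 2 AmTARS libraries. Since treatment and any handling difference between the groups coincide, the 2 cannot be told apart. Calls were therefore made as deposited and again after a smooth trend on length and GC content was removed from each library (rho after removal -0.0278). Length was that of the longest annotated protein-coding transcript of a gene, or of its longest transcript where none was coding. The transcript that the cells made may be shorter. Changes are given as deposited unless called corrected.

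**Figure D1:**
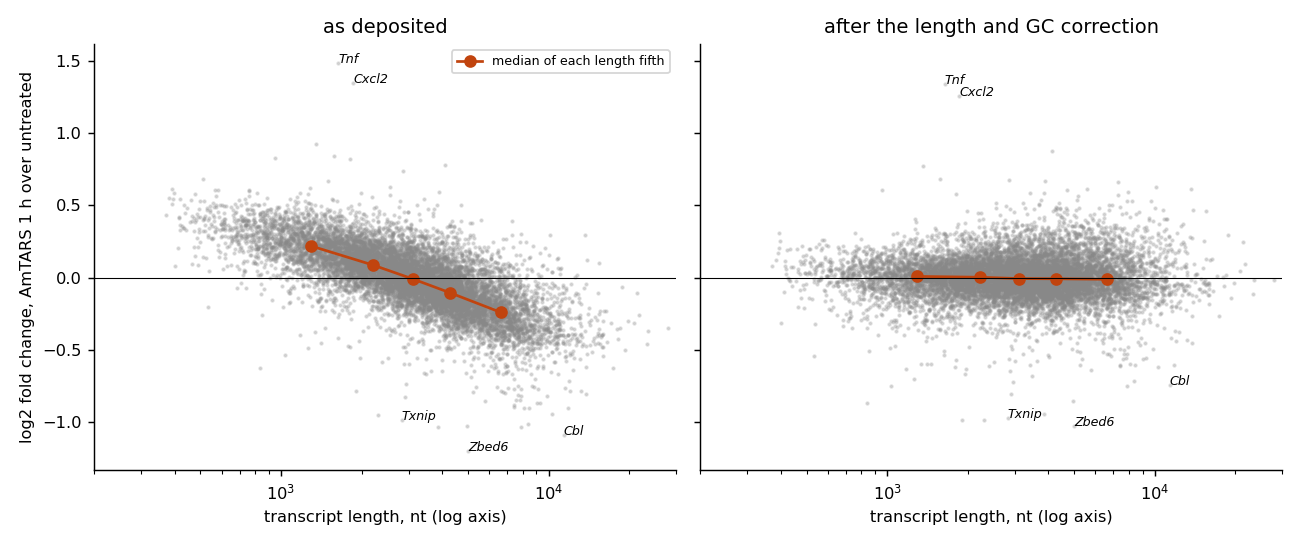
Log2 fold change of AmTARS 1 h over untreated against transcript length (log axis), 1 grey point per gene, with the median of 5 equal length classes in orange. As deposited (left) the class medians fall from 0.22 to -0.24. After the length and GC correction (right) they lie between 0.01 and -0.01. Tnf, Cxcl2, Txnip, Zbed6 and Cbl still lie away from 0 then, with Cbl moved from -1.09 to -0.74.

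As deposited, 4415 of 11407 genes passed an adjusted p under 0.05 in limma (38.7%), 2157 higher with AmTARS (18.9%) and 2258 lower (19.8%). After the correction 1589 of 11366 passed (14%), 921 higher (8.1%) and 668 lower (5.88%). In the same direction under both, 1099 genes passed (9.67%), 561 higher (4.94%) and 538 lower (4.73%), and "rose" and "fell" are used below for these alone. Most changes were small: the median size was 0.30 on the log2 scale among the 561 and 0.39 among the 538, and 3 rises and 6 falls reached 2-fold as deposited, against 2 and 1 after the correction. The uncorrected count was 2603 without untreated library 2, and the corrected count then was 507; the other 3 libraries left out in turn gave 3029 to 3308 and 704 to 930. Groups did not overlap for 70.4% of genes (34.8% higher, 35.6% lower), so separation of the 4 values alone says little here. Log2 fold changes are on the log2(CPM + 1) scale, which understates the change of genes with low levels, and SE is the moderated standard error.

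The 2 largest rises were Tnf and the chemokine gene Cxcl2. Tnf, the gene of the cytokine tumour necrosis factor (chromosome 17, 35199381 to 35202007), stood at 23.7 and 23.6 CPM in the untreated libraries and at 64.0 and 71.7 CPM with AmTARS. The change was 1.48 on the log2 scale (SE 0.07, adjusted p in limma 4.07e-11), or 1.34 after the correction. The groups were far apart relative to the gap between replicates. Il1b, which encodes interleukin-1 beta, the precursor of a fever-inducing cytokine, went from 21.5 and 24.6 CPM to 42.2 and 47.1 CPM (log2 change 0.93, SE 0.13; 0.77 corrected). Osm, the gene of the interleukin-6 family cytokine oncostatin M, had 9.91 and 10.7 CPM untreated and 13.0 and 17.0 CPM with AmTARS. Its rise (0.49, SE 0.11) lost the call without AmTARS library 3 (0.31, adjusted p in limma 0.0524). Tnfsf9, the ligand of the T cell co-stimulator 4-1BB, rose from 5.28 and 4.94 CPM to 7.60 and 7.76 CPM (0.51, SE 0.09).

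Few other cytokines moved. Of 14 measured interleukin-family cytokines, 2 rose (Il1b and Osm), 12 did not pass, and the median change was 0.07, against -0.002 over all genes tested. Il27 was lower after the correction alone, at 1.20 and 1.95 against 1.57 and 0.897 CPM with overlapping groups. Il1a, the partner of Il1b at the same receptor, stayed at 7.00 and 7.54 CPM against 7.43 and 7.24 CPM (0.01, SE 0.11). Il6 read 1.66 and 1.95 CPM untreated and 1.71 and 2.85 CPM with AmTARS, and Il12b 1.26 and 2.37 against 1.76 and 1.55 CPM. The libraries of the groups overlapped for these 3 genes, and none passed. In the TNF superfamily, 4 of 16 measured genes were higher as deposited and 2 after the correction (Tnf and Tnfsf9), while the receptors Tnfrsf1a and Tnfrsf1b did not pass. Il10 and Ifnb1 were not analysed here.

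Chemokines that draw neutrophils rose most among the chemokines. Cxcl2 (chromosome 5, 90903871 to 90905938) had 16.7 and 18.8 CPM untreated and 43.7 and 49.6 CPM with AmTARS (log2 change 1.34, SE 0.11, adjusted p in limma 1.51e-07), and it passed after the correction too. Its neighbour Cxcl1 rose from 12.6 and 12.0 CPM to 22.3 and 22.8 CPM (0.83, SE 0.11; 0.61 corrected). These are the 2 genes whose promoters above share the same kB run in capitals. Of 10 measured CXC chemokines, 7 were higher as deposited, and Cxcl2, Cxcl1, Pf4 and Cxcl16 rose. Cxcl12 was higher after the correction alone. Cxcl3, another ligand of the same receptor, read 23.6 and 24.3 CPM against 33.3 and 30.6 CPM and lost the call after the correction (0.19, adjusted p in limma 0.179). Cxcl10, an interferon-linked chemokine for T cells, read 4.80 and 6.23 against 8.11 and 7.30 CPM and lost it too (0.26, adjusted p 0.197). The uncorrected count fell from 7 to 3 without AmTARS library 2 and to 4 without untreated library 2. Among 9 CC chemokines, Ccl3 and Ccl4, ligands that recruit monocytes and lymphocytes, were higher as deposited at 44.2 and 38.1 CPM and at 17.7 and 15.8 CPM, over 29.2 and 30.9 and 11.7 and 11.9 CPM. After the correction they were at 0.19 and 0.20 on the log2 scale and did not pass. The count of 4 higher CC genes dropped to 1 without AmTARS library 2 and to 2 without untreated library 2.

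**Figure D2:**
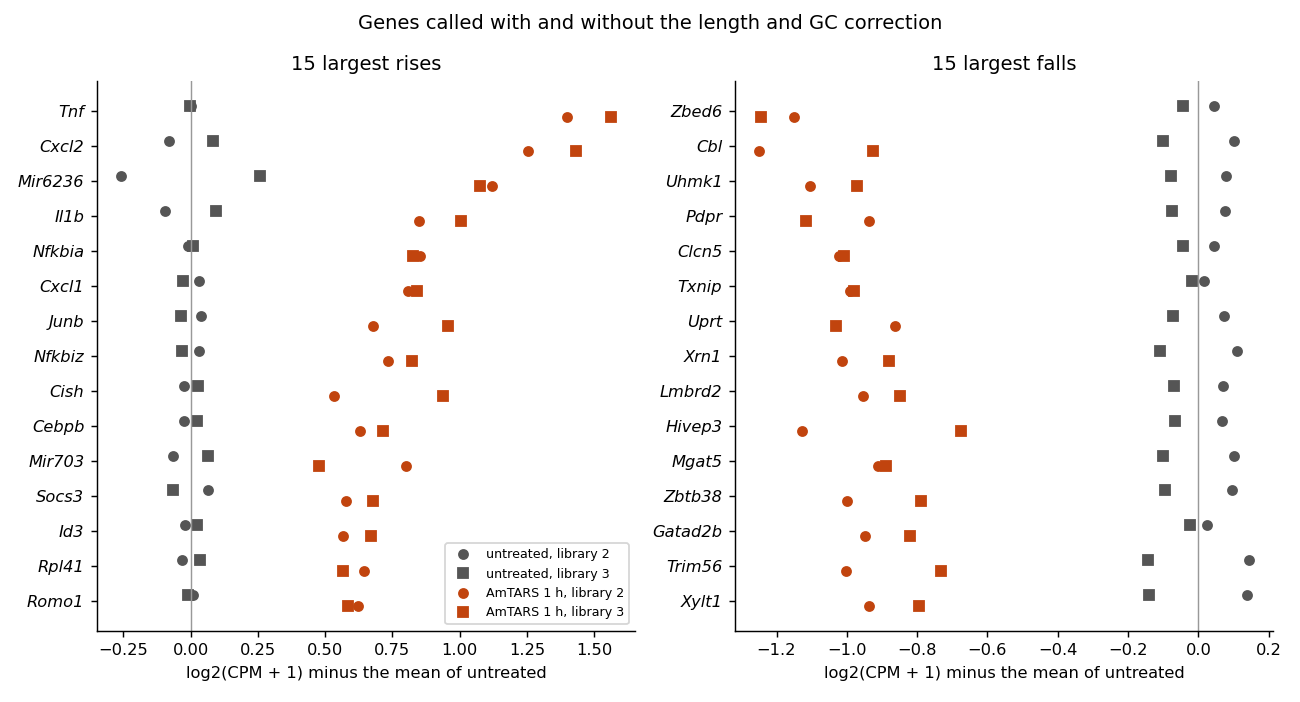
The 15 largest rises (left) and 15 largest falls (right) among genes called with and without the length and GC correction, as log2(CPM + 1) of each library minus the untreated mean; grey marks are untreated and orange marks AmTARS 1 h, circles library 2 and squares library 3. The 4 libraries do not overlap for any gene, which the choice of genes required; Tnf and Cxcl2 lie farthest right and Zbed6 and Cbl farthest left, and Txnip has the tightest pair on the left.

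Several genes of the NF-kB and IkB family also rose. Nfkbia encodes IkB-alpha, which holds NF-kB in the cytoplasm and is itself made anew when NF-kB is active. It stood at 118 and 120 CPM untreated and at 215 and 212 CPM with AmTARS (log2 change 0.84, SE 0.05, adjusted p in limma 7.55e-09; 0.68 corrected), 1.80-fold on the CPM scale. Nfkbiz, a nuclear IkB protein, rose from 21.3 and 20.4 CPM to 35.3 and 37.7 CPM (0.78, SE 0.06), and its change was 0.88 after the correction. Nfkbid, another nuclear member, went from 27.4 and 27.1 CPM to 34.3 and 40.5 CPM (0.44, SE 0.07). Nfkbib, Nfkbie and the subunit Relb rose by 0.27 to 0.37. Of the 16 measured genes of this family, 8 were higher and 4 lower as deposited, and 6 and 2 after the correction. The 2 that fell under both were Ikbke, a kinase of the interferon branch, and Rel, the c-Rel subunit, with Rel at 9.54 and 8.99 CPM against 5.94 and 5.69 CPM (-0.59, SE 0.09). Leaving out single libraries left 1 or 2 of the 4 lower calls. As deposited, Rel kept its call under each, and Ikbke (-0.14, SE 0.05) lost it without untreated library 2 or either AmTARS library.

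Feedback inhibitors further along the pathway also rose. Tnfaip3, the gene of the ubiquitin-editing enzyme A20, had 49.2 and 47.2 CPM untreated and 60.9 and 62.5 CPM with AmTARS (log2 change 0.35, SE 0.06). Socs3, which blocks cytokine receptor signalling, rose from 47.3 and 43.1 CPM to 67.8 and 72.8 CPM (0.63, SE 0.07). Its relative Cish rose from 3.66 and 3.82 CPM to 5.86 and 8.07 CPM (0.74, SE 0.12), with the AmTARS libraries well apart from each other. Zc3h12a, which encodes the RNase regnase-1, rose by 0.42 (SE 0.06). In this list of 18 inhibitors, 5 were higher and 4 lower as deposited, and 6 and 1 after the correction. Irak3, a kinase-dead brake on IRAK signalling, fell slightly (-0.21, SE 0.07) and was not called without untreated library 2 (adjusted p in limma 0.162) or AmTARS library 3 (adjusted p 0.114). The count of 4 lower calls was 2 without either of these libraries.

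Immediate-early transcription factors responded unevenly. Junb, an AP-1 subunit, stood at 181 and 171 CPM untreated and at 282 and 342 CPM with AmTARS (log2 change 0.82, SE 0.06, adjusted p in limma 1.08e-07). Fos, its dimer partner, rose from 53.0 and 50.7 CPM to 65.7 and 69.9 CPM (0.38, SE 0.05). Nr4a1, an orphan nuclear receptor, rose from 11.5 and 13.1 CPM to 16.1 and 21.8 CPM (0.57, SE 0.10). Jund and Ier3 rose by 0.47 each. Egr1, usually among the first genes induced by MAP kinases, had 6.34 and 6.92 CPM untreated and 6.67 and 8.29 CPM with AmTARS and did not pass (0.15, SE 0.09, adjusted p in limma 0.228). Jun, Egr2, Egr3, Atf3 and Klf4 did not pass either, with changes of -0.08 to 0.02. Klf10, a zinc finger repressor, fell from 63.0 and 61.1 CPM to 45.5 and 46.4 CPM (-0.43, SE 0.05). In all, 10 of 25 were higher and 1 lower as deposited, and 7 and 1 after the correction; without AmTARS library 3 the 10 became 6. The C/EBP factors Cebpb (153 and 158 to 241 and 256 CPM, 0.67, SE 0.06) and Cebpd (29.0 and 26.9 to 38.2 and 40.4 CPM, 0.48, SE 0.06) rose, and so did Id3, an inhibitor of helix-loop-helix factors (0.62, SE 0.06).

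Dusp1 encodes a phosphatase that switches off ERK, JNK and p38 MAP kinases. It rose from 33.9 and 34.5 CPM to 46.3 and 58.1 CPM (log2 change 0.59, SE 0.08). Dusp2 read 2.46 and 3.18 CPM untreated and 4.45 and 4.55 CPM with AmTARS, and its corrected change of 0.30 missed the threshold (adjusted p in limma 0.0549). Of 18 genes in the list 5 were higher and 2 lower as deposited, and 1 and 1 after the correction. Neither lower call was kept without untreated library 2. Among 27 components of the MyD88 pathway itself, 4 were higher and 9 lower, but 2 and 1 after the correction, and the uncorrected 9 became 4 without untreated library 2 or AmTARS library 3. Myd88 was at 96.3 and 93.7 CPM against 104 and 100.4 CPM and did not pass (0.11, SE 0.05).

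The receptors themselves moved in opposite directions. Cd14, a co-receptor that hands bacterial ligands to TLR2 and TLR4, rose from 626 and 617 CPM to 801 and 897 CPM (log2 change 0.45, SE 0.07, adjusted p in limma 9.74e-05). Tlr2 itself was at 245 and 249 CPM untreated and at 282 and 272 CPM with AmTARS (0.17, SE 0.06, adjusted p in limma 0.0239). That call was lost without any of the 4 libraries in turn (adjusted p 0.0521 to 0.149). Of the endosomal receptors of nucleic acids, Tlr7, Tlr8 and Tlr9 fell, and Tlr3 did not pass (-0.14, SE 0.08). Tlr8 went from 156 and 153 CPM to 96.3 and 98.0 CPM (-0.66, SE 0.06) and Tlr9, the receptor of CpG DNA, from 27.0 and 23.7 CPM to 15.4 and 15.8 CPM (-0.67, SE 0.10). Tlr7 fell from 243 and 249 CPM to 197 and 185 CPM (-0.36, SE 0.05). Tlr4, the lipopolysaccharide receptor, fell from 92.9 and 88.9 CPM to 70.5 and 63.8 CPM (-0.43, SE 0.07). The AmTARS libraries lay below the untreated ones for each of these 4 receptors, and the corrected changes were -0.61 for Tlr8, -0.68 for Tlr9, -0.27 for Tlr7 and -0.33 for Tlr4.

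In the list of 15 Toll-like receptors and co-receptors, 5 were higher and 7 lower as deposited (median change -0.17), and 2 and 7 after the correction. The members that fell also included Tlr13 (-0.33) and Cd180 (-0.36), a surface relative of TLR4; these 2 are named to complete the count after their values were seen. Tlr1, which pairs with TLR2 on triacylated lipopeptides, was at 29.2 and 29.3 CPM against 26.0 and 23.2 CPM (-0.24, SE 0.07). Its call was lost without untreated library 2, untreated library 3 or AmTARS library 3 (adjusted p in limma 0.0567 to 0.158). Tlr6, the other partner of TLR2, did not pass (-0.17, SE 0.08). The 5 higher calls became 3 without untreated library 2, untreated library 3 or AmTARS library 2.

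Txnip had the smallest adjusted p of the falls described here. The gene encodes thioredoxin-interacting protein, an alpha-arrestin that restrains glucose uptake and binds thioredoxin (chromosome 3, 96557957 to 96561883). It had 463 and 452 CPM in the untreated libraries and 230 and 232 CPM with AmTARS, a fall of 49.6% (log2 change -0.98, SE 0.04, adjusted p in limma 6.9e-12). With a transcript of 2827 nt it was hardly touched by the length correction (-0.97). Arrdc4, its closest relative in sequence and another glucose-responsive alpha-arrestin, fell from 46.9 and 48.3 CPM to 35.0 and 38.4 CPM (-0.37, SE 0.06), and -0.28 after the correction. No overlap between groups was seen for either. Of the 8 measured genes of the list, 3 were lower and 1 higher as deposited, and 2 were lower after the correction. Mlxip, the gene of a glucose-sensing partner factor of MLX, was the lower gene that lost its call (-0.12, adjusted p in limma 0.156). Arrdc3 and the glucose transporter gene Slc2a1 did not pass (-0.03 and 0.09).

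**Figure D3:**
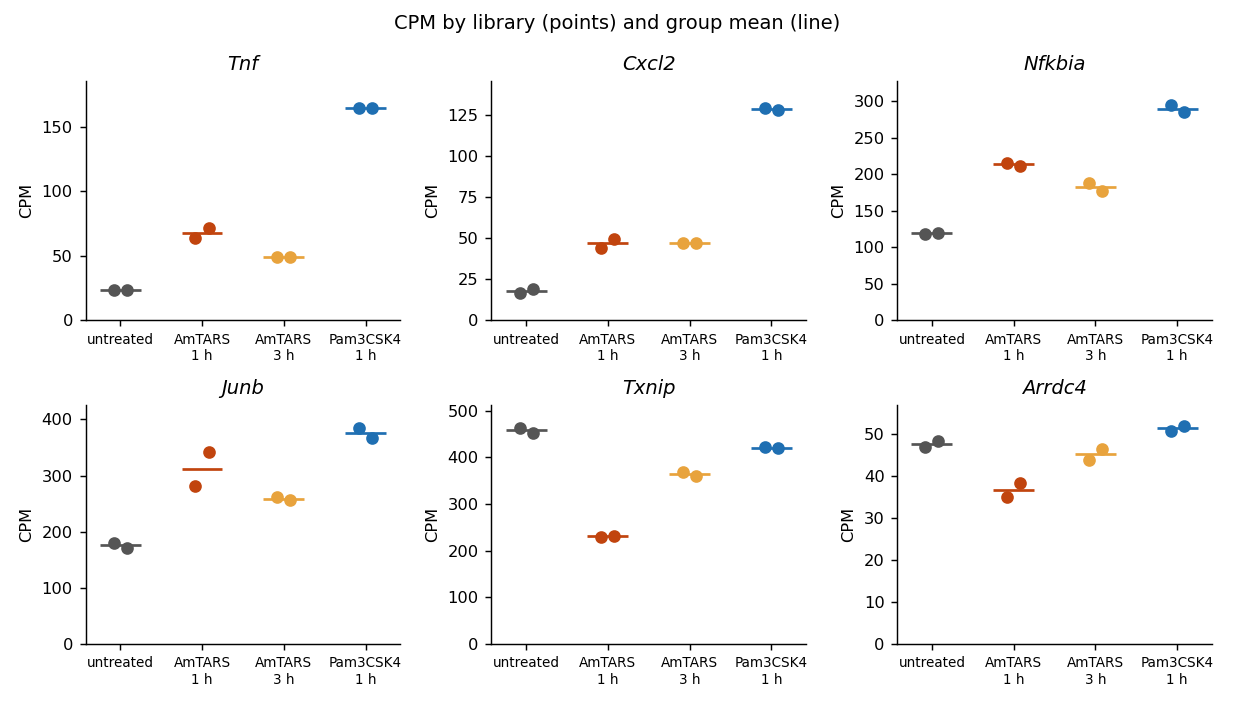
CPM of 6 genes by library (points) with the group mean (line), for untreated cells, AmTARS at 1 h and 3 h and Pam3CSK4 at 1 h; every axis starts at 0. Tnf, Cxcl2, Nfkbia and Junb are higher with AmTARS at 1 h than untreated, and Tnf, Cxcl2 and Nfkbia are higher still with Pam3CSK4, whereas Txnip and Arrdc4 are lowest with AmTARS at 1 h.

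The other large falls were of genes at low levels, at most 28.9 CPM in an untreated library. Zbed6, which encodes a transcription factor derived from a DNA transposon, read 11.8 and 11 CPM untreated and 4.58 and 4.24 CPM with AmTARS (log2 change -1.20, SE 0.14). It lies within Zc3h11a on the same strand, so its reads may be shared with that gene. Cbl, a ubiquitin ligase that marks activated receptors for degradation, fell from 28.9 and 24.9 CPM to 10.7 and 13.6 CPM (-1.09, SE 0.13), with -0.74 after the correction. Xrn1, the main 5′ to 3′ exonuclease of messenger RNA decay, fell from 13.8 and 11.7 CPM to 5.81 and 6.46 CPM (-0.95, SE 0.09), with -0.62 after it. Uhmk1, a kinase of splicing factors, and Clcn5, an endosomal chloride transporter, fell by 1.04 and by 1.02 on the log2 scale, and Pdpr, a regulator of pyruvate dehydrogenase phosphatase, fell by 1.03. The remaining falls among the 15 were Uprt, Lmbrd2, Hivep3, Mgat5, Zbtb38, Gatad2b, Trim56 and Xylt1, at -0.87 to -0.95. Their transcripts and that of Txnip were 2304 to 11838 nt long, against 109 to 4115 nt for the 15 rises. As deposited, all 30 genes kept their call when each of the 4 libraries was left out in turn. Their corrected calls were not checked gene by gene in this way.

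Both annotated microRNA loci among the rises need care. Mir6236 read 137 and 196 CPM untreated and 357 and 346 CPM with AmTARS (log2 change 1.10, SE 0.12), and Mir703 3.26 and 3.66 against 6.75 and 5.20 CPM. Poly-A libraries do not measure mature microRNAs, so these are reads over loci of 123 and 109 nt and not microRNA levels. The remaining 2 of the 15 rises, Rpl41 and Romo1, encode a ribosomal protein and a mitochondrial inner membrane protein, at 0.61 and 0.60 as deposited and 0.26 and 0.20 after the correction. A further 5 rises and 5 falls show what the correction removes. Scand1, Pglyrp1, Nenf, Selm and Retnlg, with transcripts of 593 to 759 nt, were higher by 0.50 to 0.60 and then by 0.11 to 0.23. Ddi2, Rif1, Megf9, Gpam and Uvssa, at 6172 to 9553 nt, were lower at -0.55 to -0.61 and then at -0.27 to -0.34.

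Genes of messenger RNA decay moved in both directions. Zfp36, the gene of tristetraprolin, which binds AU-rich elements in cytokine messages and speeds their decay, rose from 108 and 104 CPM to 151 and 158 CPM (log2 change 0.53, SE 0.05, adjusted p in limma 4.08e-07). Btg2, which recruits deadenylases, was at 43.2 and 43.6 CPM against 48.6 and 50.8 CPM (0.19, SE 0.05); its call was lost without untreated library 2 (adjusted p 0.0589) or AmTARS library 3 (adjusted p 0.0814). Cnot1, the scaffold of the CCR4-NOT deadenylase, fell from 92.9 and 87.7 CPM to 65.6 and 62.4 CPM (-0.49, SE 0.06), with -0.19 after the correction. Of 25 genes, 4 were higher and 10 lower as deposited, yet 7 and 3 after the correction. Without untreated library 2 the uncorrected counts were 2 and 6, and without AmTARS library 3 they were 3 and 6. Of 16 ubiquitin ligases of receptor turnover, Cbl included, 9 were lower as deposited and 4 after the correction (Cbl, Nedd4, March1 and March7). Over all genes tested 19.8% and 5.88% were lower. The median transcript of this list was 4557 nt, and its median corrected change was -0.035. Nedd4 was at 58.5 and 57.7 CPM against 45.2 and 45.1 CPM (-0.36, SE 0.06).

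Interferon-linked genes were called in both directions as deposited, and so were genes at large. Over all genes tested 18.9% were higher and 19.8% lower as deposited, and 8.1% and 5.88% after the correction. Of 26 interferon-stimulated genes 7 were higher and 5 lower as deposited, and 2 and 0 after the correction. Isg15 and Bst2, small antiviral proteins, were higher at 0.44 and 0.40, but at 0.15 and 0.09 after the correction. Rsad2, Ifit1, Ifit3 and Mx1 did not pass. Without untreated library 2 the counts were 3 and 1. Among 11 interferon regulatory factors and binding proteins, 5 were higher as deposited and 2 after the correction, Irf2bp1 and Irf2bp2, with no lower call; without untreated library 3 the 5 became 2. Of 17 late inflammatory effector genes 4 were higher and 3 lower as deposited, and 2 and 1 after the correction. The 4 became 2 without untreated library 2 or AmTARS library 2, and the 3 became 1 without untreated library 3 or AmTARS library 3. Nos2, which makes nitric oxide, was at 16.6 and 17.2 CPM untreated and at 14.2 and 13.7 CPM with AmTARS (-0.26, SE 0.10); this call was lost after the correction and without each library in turn. Ptgs2 (-0.05) and Arg1 (0.09) did not pass. Saa3, an acute-phase protein, rose from 441 and 495 CPM to 641 and 591 CPM (0.40, SE 0.07). Sod2, a mitochondrial superoxide dismutase, was at 167 and 175 against 198 and 190 CPM (0.18, adjusted p in limma 0.0456; 0.40 corrected), and lost the uncorrected call without each library in turn (adjusted p 0.0784 to 0.231).

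Several surface molecules fell. Mertk, a receptor for engulfing dying cells, fell from 67.1 and 62.3 CPM to 43.6 and 47.7 CPM (log2 change -0.49, SE 0.08). Itgam, the CD11b integrin chain, fell from 874 and 849 CPM to 683 and 722 CPM (-0.29, SE 0.05), and Itga4, an integrin chain of the receptor VLA-4, from 99.8 and 97.5 CPM to 68.8 and 72.3 CPM (-0.48, SE 0.05). Corrected changes were -0.37, -0.15 and -0.15. Of 16 co-stimulation and adhesion genes 5 were lower and 0 higher as deposited, and 4 and 1 after the correction; without AmTARS library 2 the 5 became 3. Genes of MHC class II went the other way as deposited, 7 of 10 higher and 1 lower, but only H2-DMa stayed after the correction (0.32, then 0.19). The lower gene was Ciita, the master regulator of that class, at 3.80 and 3.41 CPM against 2.82 and 2.23 CPM; it lost its call without untreated library 2 (adjusted p in limma 0.133), without AmTARS library 3 (adjusted p 0.179) and after the correction.

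Housekeeping lists, of short transcripts, and zinc finger genes, of long ones, went opposite ways as deposited. All 38 measured cytosolic ribosomal protein genes were higher as deposited, by 0.16 to 0.53 (median 0.38), and 20 after the correction (median 0.11). The 2 with the longest annotated transcripts, Rpl18 and Rps20, had 315 and 313 against 431 and 431 CPM and 327 and 340 against 456 and 441 CPM. Their corrected changes were 0.45 and 0.50. If the cells made shorter transcripts of these genes, the correction removed too little, which was not tested. Of 35 subunits of oxidative phosphorylation 30 were higher as deposited, and 7 higher and 1 lower after the correction. At the other end, 26 of 48 zinc finger genes of the Zfp series were lower and 0 higher, and 4 and 0 after the correction; without untreated library 2 the 26 became 12, and without AmTARS library 3 they became 17. No test set these lists against other genes of the same length.

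**Figure D4:**
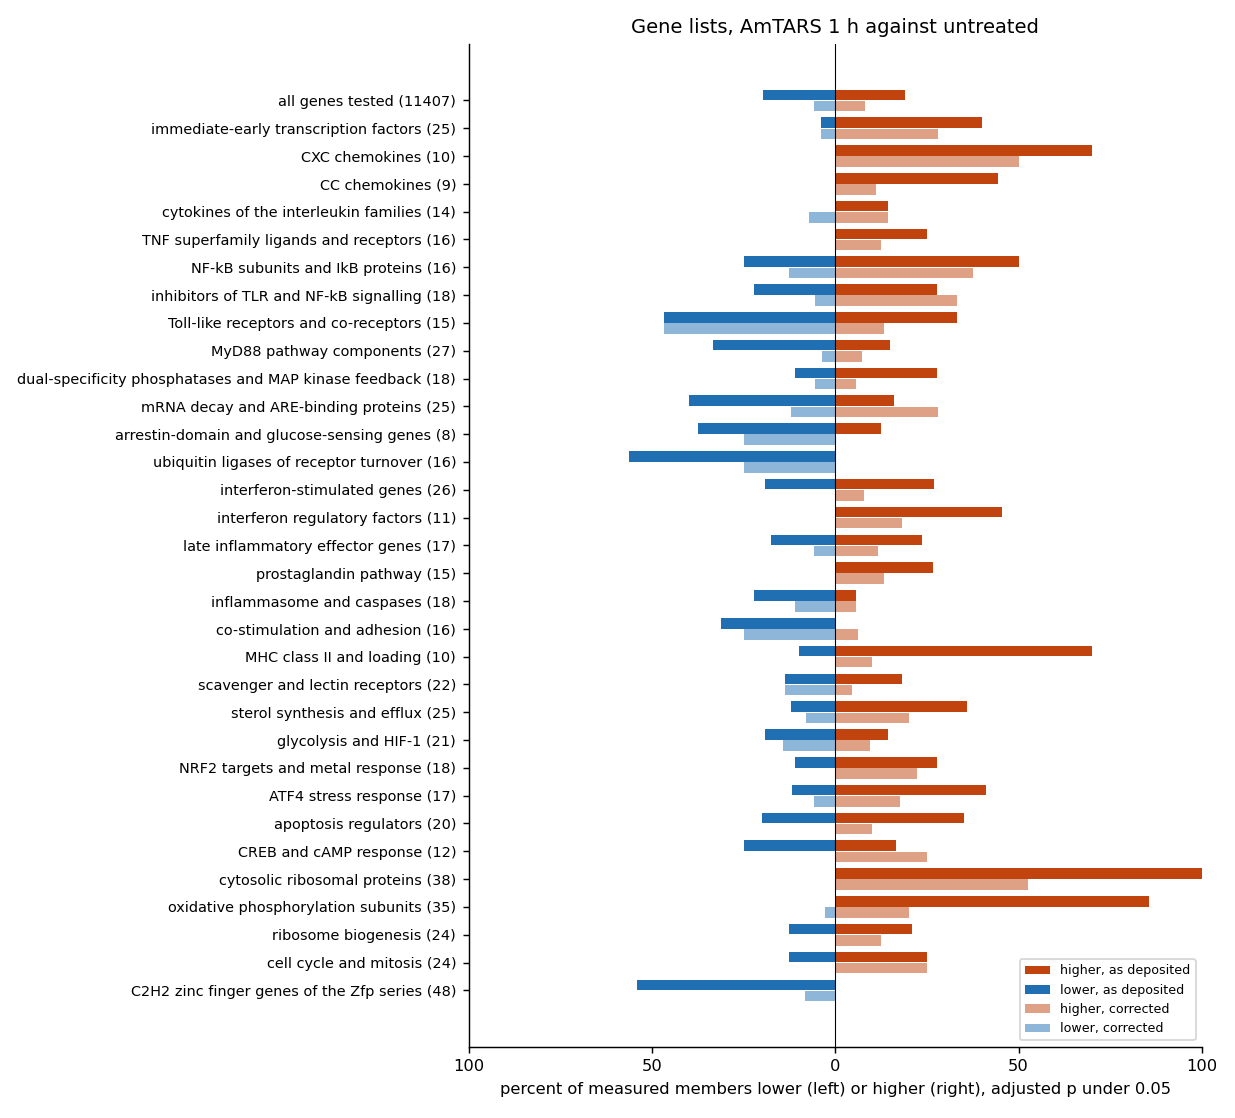
Percent of measured members of each gene list that were higher (right, orange) or lower (left, blue) with AmTARS 1 h at an adjusted p under 0.05, dark bars as deposited and light bars after the length and GC correction; the number of measured members follows each name. Ribosomal proteins reach 100% as deposited, the Zfp list has bars to the left alone, and Toll-like receptors keep their 7 lower members after the correction.

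Some markers of other cells in the culture were called as well. The median transcript was 1123.5 nt in the neutrophil list and 5423 nt in the fibroblast list. Of all genes in the shortest length class, 56.3% were called higher as deposited, and of those in the longest 60.8% were called lower. These lists were not tested against genes of like length. Of 12 measured neutrophil genes, 8 were higher and 2 lower as deposited, and 3 and 2 after the correction. Camp, a granule peptide, had 27.4 and 27.7 CPM untreated and 42.0 and 43.0 CPM with AmTARS (log2 change 0.60, SE 0.08; 0.31 corrected). The neutrophil genes summed to 2317 and 2393 CPM untreated and 2748 and 2816 CPM with AmTARS, whose libraries had the higher CPM totals given above. Mmp8 and Csf3r, also neutrophil genes, were lower (-0.21 and -0.17), with Csf3r losing its call without untreated library 2 (adjusted p in limma 0.194) or AmTARS library 3 (adjusted p 0.0946). Fibroblast genes summed to 1760 and 1682 CPM untreated and 1489 and 1632 CPM with AmTARS, with 4 of 9 lower and 1 higher (Acta2, smooth muscle actin) as deposited, and 1 and 2 after the correction. The 4 became 1 without untreated library 2 or AmTARS library 2. Of 12 macrophage markers 3 were higher and 4 lower as deposited (Adgre1, Mertk, Itgam and Mrc1), and 1 and 5 after the correction. Of 3 T and NK cell markers Cd4 was lower (-0.25, adjusted p in limma 0.0319), a call lost after the correction and without untreated library 2, untreated library 3 or AmTARS library 2 (adjusted p 0.0592 to 0.27). No measured marker of mast cells (6), B cells (1), erythroid cells (1) or dendritic cells (5) passed. In whole-culture RNA, a change in the share of a cell type and a change in RNA per cell cannot be told apart, and the part of these shifts in the other results was not tested.

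Set directly against Pam3CSK4 at 1 h, a comparison without untreated libraries, AmTARS differed at few genes. Of 11407 genes 21 passed (0.184%), 20 lower with AmTARS (0.175%) and 1 higher (0.00877%). After the correction 27 passed (0.238%), 24 lower (0.211%) and 3 higher (0.0264%). Cxcl2 stood at 43.7 and 49.6 CPM with AmTARS and at 129 and 128 CPM with Pam3CSK4 (log2 difference -1.45, SE 0.11, adjusted p in limma 4.08e-08). Tnf stood at 64.0 and 71.7 CPM against 165 and 165 CPM (-1.27, SE 0.07), and Cxcl1 at 22.3 and 22.8 CPM against 57.0 and 51.2 CPM (-1.23, SE 0.11). The libraries of the 2 ligands were far apart for each of these 3 genes, with AmTARS between untreated and Pam3CSK4.

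Egr1 separated the ligands without having passed for AmTARS. It stood at 6.67 and 8.29 CPM with AmTARS and at 21.6 and 20.1 CPM with Pam3CSK4 (log2 difference -1.37, SE 0.09, adjusted p in limma 1.34e-08), beside 6.34 and 6.92 CPM untreated. Feedback genes differed in the same direction: Zfp36 was at 151 and 158 against 268 and 271 CPM (-0.80, SE 0.05), and Socs3 at 67.8 and 72.8 against 122 and 119 CPM (-0.77, SE 0.07). Dusp1 differed by -0.71, Ier3 by -0.61 and Tnfaip3 by -0.40, and the IkB family genes Nfkbiz and Nfkbia by -0.66 and -0.44. Of the 20 lower genes, 17 had been called higher in AmTARS cells than in untreated cells. Junb (-0.27, 95% interval -0.40 to -0.13), Il1b (-0.40, interval -0.67 to -0.14) and Cebpb (-0.14, interval -0.26 to -0.02) did not pass after adjustment over all genes, although their unadjusted intervals lie below 0. Since the doses cannot be related, none of this ranks the ligands.

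Txnip and Arrdc4 differed from Pam3CSK4 in another way. Txnip was at 230 and 232 CPM with AmTARS and at 421 and 420 CPM with Pam3CSK4, beside 463 and 452 CPM untreated (log2 difference between ligands -0.86, SE 0.04, adjusted p in limma 8.41e-11). Arrdc4 was at 35.0 and 38.4 CPM with AmTARS and at 50.7 and 51.8 CPM with Pam3CSK4 (-0.47, SE 0.06, adjusted p in limma 0.00017), beside 46.9 and 48.3 CPM untreated. These are the 2 of the 20 lower genes that fell with AmTARS. The single gene that was higher with AmTARS was Slc30a1, which encodes a zinc exporter, at 31.1 and 28.9 CPM against 23.1 and 23.6 CPM (0.35, SE 0.06, adjusted p in limma 0.0112). That call was lost without AmTARS library 2 (0.29, adjusted p 0.472) and without either Pam3CSK4 library (adjusted p 0.178 and 0.0546). Dusp2 and Nfkbid also lost theirs without AmTARS library 2 and without either Pam3CSK4 library (adjusted p 0.0597 to 0.627), and Id3, Btg2 and Csrnp1 without AmTARS library 2 or Pam3CSK4 library 1 (adjusted p 0.178 to 0.51). Tlr8, Tlr9, Cbl and Xrn1 did not pass between the ligands (0.23, 0.26, 0.26 and 0.18), and each had lower CPM means with Pam3CSK4 than with AmTARS. These values are uncorrected, and differences between the ligands also followed length across all genes (Spearman's rho 0.347, AmTARS minus Pam3CSK4).

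**Figure D5:**
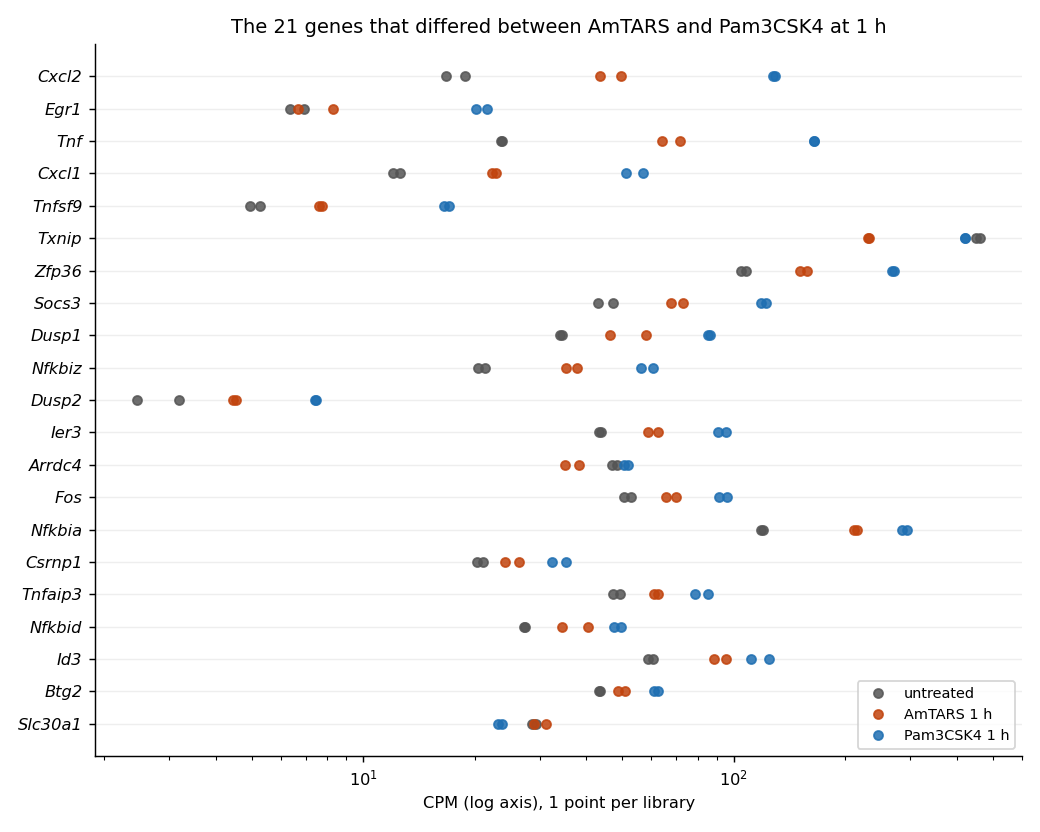
CPM (log axis, 1 point per library) of the 21 genes that differed between AmTARS and Pam3CSK4 at 1 h, in untreated cells (grey), AmTARS 1 h (orange) and Pam3CSK4 1 h (blue). Most orange points lie between grey and blue; for Txnip and Arrdc4 orange lies to the left of both, and for Egr1 it lies near grey.

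Set against AmTARS at 3 h, 271 genes passed (2.38%), 206 higher at 3 h (1.81%) and 65 lower (0.57%). After the correction 473 passed (4.16%), 315 higher (2.77%) and 158 lower (1.39%). Spearman's rho between length and the uncorrected difference, 3 h minus 1 h, was 0.208. Without AmTARS 3 h library 3 the uncorrected count was 89, and without AmTARS 1 h library 2 it was 95; the other 2 gave 147 and 158. Tnf was lower at 3 h, at 49.0 and 49.1 CPM at 3 h against 64.0 and 71.7 CPM (log2 difference -0.46, SE 0.07, adjusted p in limma 0.00069). Junb and Nfkbia were also lower at 3 h (-0.26 and -0.23), though both calls were lost without some libraries: Junb without AmTARS 1 h library 3 or either 3 h library (adjusted p 0.115 to 0.446), and Nfkbia without any of the 4 (adjusted p 0.0536 to 0.397). Cxcl2, Cxcl1 and Il1b did not pass between the times, at 0.01, 0.04 and 0.02. Txnip was higher at 3 h, at 369 and 361 CPM (0.66, SE 0.04, adjusted p in limma 1.31e-08). Tlr2 was at 364 and 365 CPM at 3 h (0.40, SE 0.06, adjusted p 0.000245) and Irak3 at 106 and 111 CPM, up from 67.7 and 65.2 CPM (0.70, SE 0.07). Of the late effector genes, 10 of 17 were higher at 3 h than at 1 h, among them Sod2 (0.66) and Ptges (0.68). Nos2 (0.39), Marco (0.335) and Hcar2 (0.517) were also among them, but each lost its call without any of the 4 libraries.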

How the data were processed

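The authors deposited log2(CPM + 1) values per gene from poly-A selected, strand-specific mRNA libraries. STAR 2.5.1, R 3.3.0 and mouse build mm10 are named in the submitters' processing notes; the counter, annotation and scaling are not given in the sources used here. Whole reads could be recovered for 100% of values (within 0.1 read), and voom on them was an alternative. The 10 libraries held 27398791 to 37559810 reads in listed genes, so counting error is small beside the spread between libraries, except at low levels.

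Genes averaging 1 CPM or more were tested with limma 3.58.1 (R 4.3.3) on the log2 values, with 1 mean per group, all 10 libraries and a mean-variance trend (5 residual degrees of freedom). P-values were adjusted by Benjamini-Hochberg over all genes of each comparison. For the length and GC correction, natural splines with 5 degrees of freedom for each were fitted to each library over the 11366 genes (99.6%) matched to GENCODE M21. Scripts were tested on simulated data. Intervals are at 95%.

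The genes named were the 15 largest rises and 15 largest falls called with and without the correction, without overlap and with a mean of at least 5 CPM in the higher group; the 5 largest of each that lost the call; up to 5 called members of each list; a fixed set of TLR2 response genes; and the 10 largest differences from Pam3CSK4 in each direction. Other genes are named to complete a count or as members that did not pass, and were chosen after their values were seen. The members and the 40 gene lists were chosen with earlier results of these data known. Alternatives covered the low-value filter, the pseudocount, quantile and median scaling, the replicate number as a block, the 4 libraries alone and each library left out.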

Additional observations from a re-analysis of the deposited data

Results flagged for a closer look

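These genes are given because their level differed between AmTARS and Pam3CSK4 at 1 h in limma at an adjusted p under 0.05, which is a direct test of the difference between the ligands. On the log2 scale, AmTARS minus Pam3CSK4, the chemokines Cxcl2 and Cxcl1 were at -1.45 and -1.23, and the cytokine genes Tnf and Tnfsf9 at -1.27 and -1.03. The early transcription factors Egr1, Fos and Csrnp1 were at -1.37, -0.46 and -0.41, with Id3 at -0.35. Feedback genes were at -0.80 (Zfp36), -0.77 (Socs3), -0.71 (Dusp1), -0.62 (Dusp2), -0.61 (Ier3), -0.40 (Tnfaip3) and -0.31 (Btg2). Genes of the IkB family were at -0.66 (Nfkbiz), -0.44 (Nfkbia) and -0.37 (Nfkbid). The alpha-arrestins Txnip and Arrdc4 were at -0.86 and -0.47. Slc30a1, a zinc exporter gene, was at 0.35.

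Between 3 h and 1 h of AmTARS, 12 genes passed the same test among the 15 largest rises, the 15 largest falls and the fixed set of TLR2 response genes; genes named from other lists are not counted here. Lower at 3 h were Mir703 (-0.60), Tnf (-0.46), Socs3 (-0.28), Junb (-0.26) and Nfkbia (-0.23). Higher at 3 h were Txnip (0.66), Cxcl10 (0.60), Tlr1 (0.43), Clcn5 (0.42), Tlr2 (0.40), Nos2 (0.39) and Cd14 (0.30). Tnf, Txnip and Tlr2 kept the call without any single library of the 4. Tlr1 lost it without AmTARS 3 h library 3 (adjusted p in limma 0.0612), and Mir703 without AmTARS 1 h library 2 or 3 h library 1 (adjusted p 0.254 and 0.134). Cd14, Clcn5, Socs3 and Junb lost it without 3 of the 4 libraries, and Cxcl10, Nos2 and Nfkbia without each of the 4.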

How the results depend on the processing

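The 4415 genes called between AmTARS at 1 h and untreated cells became 2603 (without untreated library 2) to 3308 when 1 library was left out, and with the length and GC correction 507 (without untreated library 2), 704 (without AmTARS library 2), 899 (without AmTARS library 3) and 930; these corrected leave-outs were added after the data were seen. The correction with all libraries gave 1589, or 1678 with the replicate number as a block, and 57.96% of its calls were higher. Other filters, pseudocounts, scalings, voom and the 4 libraries alone gave 4242 to 4668. Against Pam3CSK4 the 21 calls became 42 with the 4 libraries alone, and 15 to 29 with 1 library left out. Between 3 h and 1 h the 271 calls became 473 with the correction, 492 with the 4 libraries alone, and 89 (without AmTARS 3 h library 3) to 158 with 1 left out. Deviations of same-numbered AmTARS and untreated libraries had a correlation of -0.179 across genes. With 2 libraries per group this cannot show whether the numbers pair samples, and the main fit did not pair them. With the replicate block 4600, 15 and 210 genes were called in the 3 comparisons. With the block crossed, added after the data were seen, 5042 were called in the first.

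After the correction, with and without the block, the direction reversed for Ccl5 (-0.0303), Creb1 (0.0591), Mki67 (0.0399), Ripk1 (0.0619), Slc7a11 (0.0445) and Traf6 (0.0130), and none of these passed after the correction without the block; the cause was not tested. Of the 202 genes named in the comparison with untreated cells, 190 were called as deposited; 95 of these kept the call in the same direction after the correction and 95 lost it.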

Other observations

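Genes of sterol metabolism differed by role. Abca1, which exports cholesterol, fell from 143 and 137 CPM untreated to 102 and 94.2 CPM with AmTARS at 1 h (log2 change -0.51, SE 0.06, adjusted p in limma 6.4e-06; -0.18 after the correction). Fdps, an enzyme of the mevalonate pathway, rose from 52.2 and 56.5 CPM to 71.7 and 69.4 CPM (0.37, SE 0.05). Of 25 genes, 9 were higher and 3 lower as deposited, and 5 and 2 after the correction. At 3 h, 17 of the 25 were higher than at 1 h, Fdps at 95.7 and 94.5 CPM among them (0.43, adjusted p in limma 6.69e-05). The 3 lower calls became 1 without untreated library 2 or AmTARS library 3.

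Single members of other lists also moved. Mt1, a metallothionein that binds zinc and copper, rose from 86.9 and 94.4 CPM to 134 and 131 CPM (0.54, SE 0.06). Hif1a, the gene of the oxygen-regulated transcription factor, fell from 356 and 352 CPM to 295 and 269 CPM (-0.33, SE 0.06), and Pfkfb3, which stimulates glycolysis, from 141 and 137 CPM to 116 and 105 CPM (-0.33, SE 0.06). Pycard, the inflammasome adaptor ASC, rose from 68.9 and 74.9 CPM to 87.3 and 86.0 CPM (0.27, SE 0.05), whereas Nlrc4, another inflammasome gene, fell from 18 and 18.3 CPM to 14.1 and 13.5 CPM (-0.38, SE 0.07). These 5 genes kept their call as deposited when each of the 4 libraries was left out. Their corrected calls were not checked in this way. Of 24 cell cycle genes 6 were higher and 3 lower as deposited, and 6 and 0 after the correction. No cell cycle gene was called higher as deposited without AmTARS library 3.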
